A study of Mus musculus with 89 samples.

Results

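The expression of 10 genes of the epithelial alarmin and type 2 cytokine system was followed in the lungs of mice given copper oxide nanomaterials with or without an allergen challenge. They were Il33 and Tslp, the alarmins, with Il1rl1, the receptor of IL-33, then Il4, Il5 and Il13, the type 2 cytokines, Il4ra, Il13ra1 and Il13ra2, the receptors of IL-4 and IL-13, and Gata3, the transcription factor of type 2 lymphocytes. The genes were chosen by name, as every non-control probe whose design annotation led to one of these symbols, and they made up 10 of the 22911 genes measured on the arrays, with 15 probes among them. The arrays were 2-colour Agilent 60-mer arrays of the mouse transcriptome, hybridised with lung RNA.

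The animals were female BALB/c mice aged 6 to 8 weeks, and every group, the controls included, had been sensitised to ovalbumin (OVA) with OVA/Alum. They then received PBS or OVA by oropharyngeal aspiration on 4 consecutive days, alone or with core CuO, its carboxylated form CuO COOH, its methylaminated form CuO NH3 or its PEGylated form CuO PEG at 2.5, 10 or 40 µg per mouse and aspiration. A part of the left lobe was taken 24 h after the last aspiration, from lungs that had been lavaged, so that cells free in the airway were partly washed out. There were 89 samples in 26 groups, 7 in the PBS control, 8 in the OVA control, 4 each for CuO NH3 10 and CuO PEG 10 without OVA, and 3 in every other group, each sample being an independent pool of 2 lung RNA samples. All groups without OVA challenge were therefore sensitised but unchallenged lungs, and no naive lung was among them. A group is named below by its material and dose, and "+ OVA" marks the allergen challenge.

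IL-33 and TSLP are cytokines that barrier cells release or secrete upon damage or allergen contact. IL-33 binds the ST2 receptor, the product of Il1rl1, on group 2 innate lymphoid cells (ILC2), T helper 2 (Th2) cells, mast cells and regulatory T cells. Of these, ILC2 and Th2 cells need GATA3 for their type 2 programme and make IL-4, IL-5 and IL-13. IL-4 and IL-13 act through IL-4Rα, which pairs with the common gamma chain or with IL-13Rα1, and drive mucus production, chemokines and IgE, whereas IL-13Rα2 binds IL-13 as a decoy. In the lung, IL-33 is stored in the nuclei of alveolar type 2 and other structural cells.

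Il4, Il13 and Il5 lie close together in one cytokine cluster on mouse chromosome 11, and GATA3 and STAT6 are the factors best known to act on these genes. The 250 bases before the annotated starts of these genes and of Il33 are shown for this reason, as RefSeq gives them for GRCm38.p6, each read along its own gene's strand. Capitals mark matches on either strand to GATA with A or T before it and A or G after it, the forms in which GATA factors bind, and to TTC followed after 4 bases of any kind by GAA, a spacing bound by STAT6. A promoter may hold several annotated starts, and both are given for Il4 and Il33.
Il4, minus strand, chr11:53618666-53618915: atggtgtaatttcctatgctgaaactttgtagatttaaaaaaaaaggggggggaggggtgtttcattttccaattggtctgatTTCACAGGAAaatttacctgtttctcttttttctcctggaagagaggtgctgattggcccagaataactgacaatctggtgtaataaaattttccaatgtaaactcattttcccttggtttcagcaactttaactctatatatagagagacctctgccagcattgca
Il4, minus strand, chr11:53617339-53617588: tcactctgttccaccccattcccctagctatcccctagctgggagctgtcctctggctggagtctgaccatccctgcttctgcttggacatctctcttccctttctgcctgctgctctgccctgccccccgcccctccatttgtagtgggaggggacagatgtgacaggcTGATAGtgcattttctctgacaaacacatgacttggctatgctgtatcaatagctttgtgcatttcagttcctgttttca
Il13, minus strand, chr11:53634703-53634952: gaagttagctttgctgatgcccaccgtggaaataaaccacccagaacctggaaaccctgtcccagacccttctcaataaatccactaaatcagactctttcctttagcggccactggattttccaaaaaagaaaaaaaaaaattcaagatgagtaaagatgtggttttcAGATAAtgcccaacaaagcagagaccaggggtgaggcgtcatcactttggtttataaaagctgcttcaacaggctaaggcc
Il5, plus strand, chr11:53720544-53720793: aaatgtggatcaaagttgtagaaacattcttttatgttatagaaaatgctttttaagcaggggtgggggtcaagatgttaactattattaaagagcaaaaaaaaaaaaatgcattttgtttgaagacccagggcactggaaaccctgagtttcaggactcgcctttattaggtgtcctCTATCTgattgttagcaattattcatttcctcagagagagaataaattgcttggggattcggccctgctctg
Il33, plus strand, chr19:29924863-29925112: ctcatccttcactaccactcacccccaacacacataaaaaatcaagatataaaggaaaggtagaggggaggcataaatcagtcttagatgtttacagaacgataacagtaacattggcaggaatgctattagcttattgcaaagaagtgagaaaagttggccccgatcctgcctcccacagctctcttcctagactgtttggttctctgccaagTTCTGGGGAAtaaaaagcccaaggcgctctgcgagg
Il33, plus strand, chr19:29945540-29945789: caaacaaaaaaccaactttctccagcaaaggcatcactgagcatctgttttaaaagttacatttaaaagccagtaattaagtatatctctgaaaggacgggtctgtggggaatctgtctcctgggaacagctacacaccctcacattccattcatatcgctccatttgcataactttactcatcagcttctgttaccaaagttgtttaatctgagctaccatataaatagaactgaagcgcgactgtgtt

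The GATA form nearest to a start lay 81 bases before Il13, 72 bases before Il5 on the other strand and 80 bases before the downstream start of Il4. The STAT6 spacing lay 167 bases before the upstream start of Il4 and 36 bases before the upstream start of Il33. Over all 32817 RefSeq promoter windows of this length, 26.6% held one of the GATA forms and 5.85% held the STAT6 spacing. These matches describe the letters of these windows and were set against no binding data.

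Before the comparisons, it matters which of the genes the arrays could see, since a probe near the array background gives a level but hardly a fold change. Both probes of Il33, both of Il4ra and the single probes of Tslp, Il13ra1 and Gata3 were well above background in 89 of 89 samples, by the scanner software's own test. One probe of Il1rl1 was detected in 89 samples, and its other probes in 30 and 28. Il4 was detected in 70 of 89 samples, 27 of 45 without OVA challenge and 43 of 44 with it. Il5 was detected in 16 samples, 0 of 45 without and 16 of 44 with OVA. Il13 was detected in 1 of 89 samples, so that nothing can be said here about its change. One probe of Il13ra2 was detected in 54 samples and the other in 0. Detection depended on the slide as well, since the Il13ra2 probe was seen in 43 of 43 samples on slides 1 to 3 but on slides 4 to 6 in 0 of 24 samples without and 11 of 22 with OVA. Il5 was seen in 12 of 22 OVA-challenged samples on slides 1 to 3 and in 4 of 22 on slides 4 to 6.

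**Figure D1:**
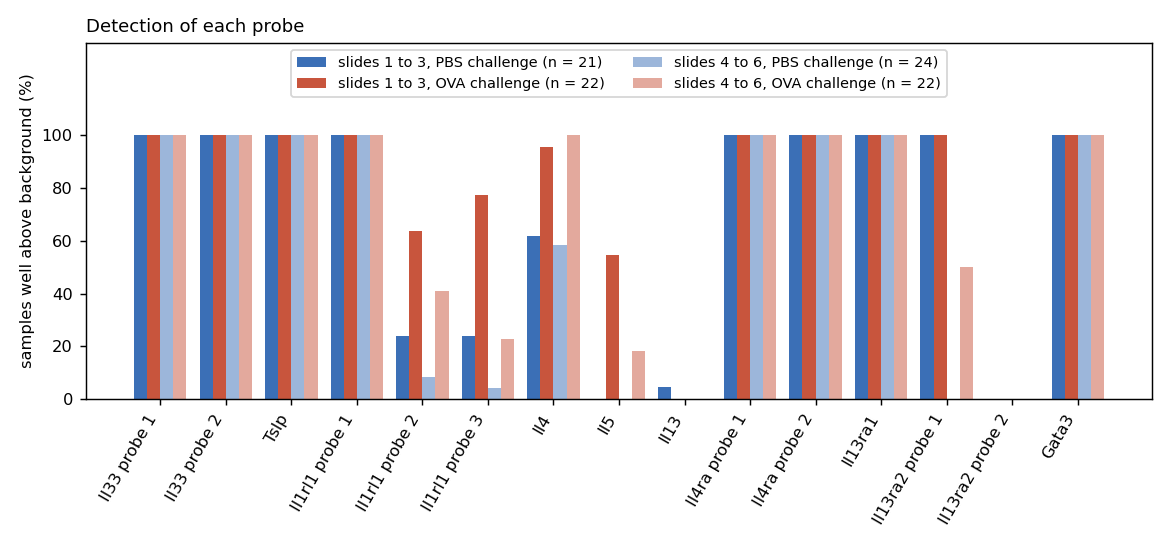
Share of samples (%) in which each probe was well above background, by slide set and challenge, with probes of a gene numbered from the brightest. Il33, Tslp, Il4ra, Il13ra1 and Gata3 reach 100% in all 4 sets, Il5 is at 0 without OVA, and Il13 has a single detected sample.

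The slides are also the layout of the study. Slides 1 to 3 held every CuO and CuO COOH sample beside 3 of the PBS and 4 of the OVA controls. Slides 4 to 6 held every CuO NH3 and CuO PEG sample beside the other 4 PBS and 4 OVA controls. From 44.6 to 65.7% of spots per sample were well above background, no spot was saturated, and the median foreground intensity was 55 to 121 in Cy3 and 67 to 180 in Cy5. Markers of alveolar type 2 cells (8 of 8), alveolar type 1 cells (5 of 5), club and ciliated cells (6 of 6) and endothelium (6 of 6) were well above background in every sample. Levels below are log2 intensities after quantile normalization from which dye, slide and array position were removed, and fold changes are log2 differences from limma with group, dye and array in the model. A gene was called when its Benjamini-Hochberg adjusted p over all genes was below 0.05 and its absolute log2 fold change above 0.58. Background was not subtracted, as in the study's methods, which makes the fold changes of dim genes smaller than the true ones.

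The first question was what the allergen alone did to these genes in sensitised lungs. OVA raised Il33 and Il4 and no other member passed both thresholds, and Il33 stood apart completely from the PBS controls. Il33, the alarmin held in nuclei, had levels of 8.81 to 9.32 in the 7 PBS samples, with a median of 9.07, and of 10.22 to 11.07 in the 8 OVA samples, with a median of 10.62. Every OVA sample lay above every PBS sample. The fitted log2 difference was 1.41 (SE 0.17, limma adjusted p = 3.47e-06), and it stayed called when any one of the 15 control samples was left out. Its brighter probe gave 1.61 and its dimmer probe 1.22. Among all genes, 5.22% were called in this comparison, against 2 of the 10 members, and 17.9% had samples that did not overlap between the groups.

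Il4, the cytokine that starts and keeps Th2 differentiation, had levels of 6.21 to 6.82 without and 7.17 to 8.51 with OVA, with medians of 6.30 and 7.53. The groups did not overlap, and the log2 difference was 1.05 (SE 0.26, adjusted p = 0.00742). The call rested on 1 array, which held PBS replicate 2 and OVA replicate 3. With the array in the model, leaving out either sample takes the other out of the difference too. The difference was then 0.59 (limma adjusted p = 0.403). With slide and array position in the model in place of the array, or with the array as a random term, the call was kept. On slides 1 to 3 alone the differences were 1.53 for Il33 (adjusted p = 3.7e-05) and 1.16 for Il4 (adjusted p = 0.024). On slides 4 to 6 alone they were 1.15 (adjusted p = 0.0554) and 0.81 (adjusted p = 0.465), so that neither was called there.

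Tslp, the other alarmin, went the opposite way to Il33. Its levels were 7.66 to 7.98 in PBS and 7.01 to 7.61 in OVA lungs, without overlap, with a log2 difference of -0.53 (SE 0.15, adjusted p = 0.0223) that fell short of the fold threshold. Il1rl1 differed by 0.43 (adjusted p = 0.0115), also short of it, as the mean of its 3 probes. The probe detected in all samples gave levels of 7.87 to 8.18 in PBS and 8.93 to 9.76 in OVA lungs, and with the brightest probe of each gene in place of the mean the difference was 0.97 (adjusted p = 0.000367) and called. Its dimmer probes, near background in most samples, gave 0.11 and 0.22, so the mean of the 3 understates what the bright probe measured. Il5, the eosinophil growth factor, was not detected in any PBS sample and in 4 of 8 OVA samples. On the normalized means, 6.03 and 5.57, the OVA lungs were brighter by 1.13-fold or more, and limma called no difference (adjusted p = 0.611). Such a bound, here and below, takes for the dim group the lowest signal of any probe well above background on the array. It holds no spread between samples, so that it does not by itself establish a rise. Il4ra, Il13ra1, Il13ra2 and Gata3 differed by 0.10, 0.14, 0.16 and -0.16, none of them called.

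**Figure D2:**
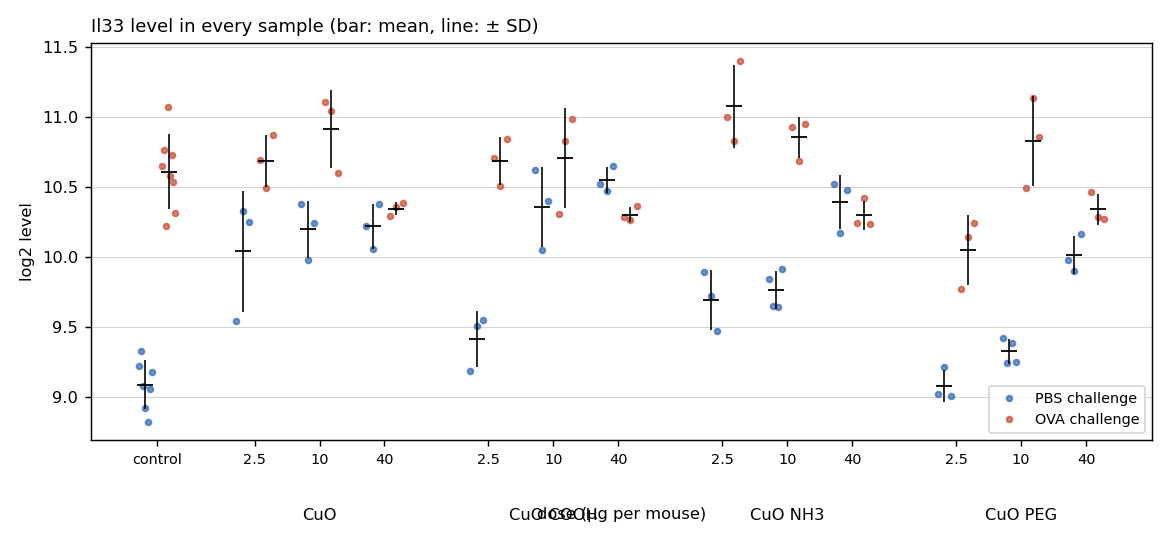
Il33 log2 level in every sample (points) with the group mean and SD, for controls and the 4 materials at 2.5, 10 and 40 µg per mouse, without (PBS) and with OVA. Without OVA the level climbs from 8.81 to 9.32 in controls to between 9.90 and 10.65 at 40 µg, whereas with OVA it is already between 10.22 and 11.07 in controls.

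Listed response genes of IL-4 and IL-13 rose in the same lungs, and which factor raised them was not tested. Of 22 genes known to respond to IL-4 or IL-13, 17 rose with OVA and none fell, with a median log2 difference of 2.58 against -0.02 over all genes. The largest were Clca1 (6.87), a regulator of goblet cells, Chil4 (4.40), a chitinase-like protein, Slc26a4 (4.36), the anion exchanger pendrin, and Arg1 (4.26), the arginase of alternatively activated macrophages. Of 19 shared receptor chains and signalling genes, 5 rose and none fell, led by the feedback inhibitors Socs1 (1.5) and Cish (0.85), then Csf2rb (0.81), the shared beta chain of the IL-5 and GM-CSF receptors, and Socs3 (0.74). Of 17 other Th2 and ILC2 genes, 4 rose and none fell, namely Arg1, Icos (1.32), a costimulator of T cells and ILC2, Maf (0.85), which activates Il4, and Klrg1 (0.58). None of 7 other alarmins was called by limma, Il18, Il25, Il1a, Hmgb1, Areg, S100a8 and S100a9 (median 0.05). Of 15 Th1 and Th17 genes, 3 rose, Ifng (1.36), the Th1 cytokine, Cxcr3 (0.99) and Il12rb1 (0.86).

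Cell markers moved with these changes in both directions. Of 10 mast cell and basophil markers 2 rose, Mcpt8 (2.03), a basophil protease, and Cpa3 (0.66), and their mean log2 level was 7.06 to 7.15 in PBS and 7.42 to 7.95 in OVA lungs. Of 8 T cell markers 3 rose, and of 7 eosinophil markers 2 rose. Beside the lower Tslp, 3 of 6 endothelial markers fell, as did 1 of 8 alveolar type 2 and 1 of 6 club and ciliated markers, and none of 5 alveolar type 1 markers was called. The mean log2 level went from 12.44 to 13.06 in PBS to 12.07 to 12.44 in OVA lungs for endothelium, from 13.02 to 13.24 to 12.45 to 12.89 for alveolar type 1, from 14.26 to 14.62 to 14.05 to 14.44 for alveolar type 2 and from 12.38 to 12.8 to 11.8 to 12.64 for club and ciliated cells. The part of these cells in the values of Il4 and Tslp was not tested, and in bulk tissue more cells of a type and more RNA per cell cannot be told apart, here and in every result below.

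The next question was what the materials did in lungs that had received no allergen. Il33 rose with all 4 materials at the highest dose, Gata3 and Tslp fell with all but CuO PEG, and Il13ra1 rose with CuO COOH and CuO NH3. No interleukin gene among Il4, Il5 and Il13 was called in any of the 12 comparisons with the PBS control, which share the same PBS samples. That depended on the batch terms for Il4. It was called lower in 1 of the 12 with slide and array position in place of the array, and in 0 with the array as a random term. At 40 µg the share of all genes called was 14% for CuO, 10.3% for CuO COOH, 13.2% for CuO NH3 and 2.18% for CuO PEG, and 3, 4, 4 and 1 of the 10 members were called. Samples did not overlap with the PBS control at this dose for 36.4%, 35.5%, 37.6% and 20.1% of all genes, so that a lack of overlap below is common among genes at 40 µg.

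Il33 in CuO lungs was 9.54, 10.32 and 10.25 at 2.5 µg, 9.97, 10.38 and 10.24 at 10 µg and 10.22, 10.38 and 10.06 at 40 µg. Every one of these samples lay above the PBS range, which ended at 9.32, and those of 10 and 40 µg reached the lower end of the OVA range or came near it. At these doses the samples of 19.9%, 19.2% and 36.4% of all genes did not overlap with the PBS control. The log2 differences from PBS were 0.89 (adjusted p = 0.107), 1.82 (SE 0.30, adjusted p = 0.000823) and 1.89 (SE 0.29, adjusted p = 5.81e-05). Of all genes 0.908%, 3.56% and 14% were called at these doses. The call at 40 µg was lost without CuO 40 replicate 2 (1.78, adjusted p = 0.0915). With slide and array position in the model in place of the array, the differences at 10 and 40 µg were smaller, 1.11 (adjusted p = 1.05e-05) and 1.14 (adjusted p = 5.58e-07), and stayed called.

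CuO COOH was called for Il33 likewise at 10 and 40 µg. Its levels were 9.55, 9.18 and 9.51 at 2.5 µg, 10.62, 10.05 and 10.40 at 10 µg and 10.65, 10.53 and 10.47 at 40 µg, the highest group mean of Il33 among lungs without OVA. The log2 differences were 1.03 at 2.5 µg, which was not called, 1.76 (adjusted p = 0.00151) and 1.72 (adjusted p = 0.000159), with 0.345%, 3.61% and 10.3% of all genes called. Without CuO COOH 10 replicate 3 the difference at 10 µg was 1.63 (adjusted p = 0.108). Over the 4 materials Il33 was called higher in 7 of the 12 comparisons with PBS. With slide and array position in place of the array it was called in 9, and with the array as a random term in 8. The 7 calls were kept in both fits, so that the added ones lay at lower doses.

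With CuO NH3 the Il33 levels were 9.89, 9.47 and 9.72 at 2.5 µg, 9.64, 9.85, 9.91 and 9.65 at 10 µg and 10.52, 10.17 and 10.48 at 40 µg. All 10 samples lay above the PBS range, with a step between 10 and 40 µg. Of all genes, 16.3%, 19.6% and 37.6% had samples that did not overlap with the PBS control at these doses. The log2 differences were 0.87 (adjusted p = 0.0822), 0.88 (adjusted p = 0.0121) and 1.46 (SE 0.20, adjusted p = 8.91e-06), and 0.934%, 3.37% and 13.2% of all genes were called. The call at 10 µg was lost without CuO NH3 10 replicate 1 (0.72, adjusted p = 0.092) and with controls of the same slides only (0.74, adjusted p = 0.129).

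CuO PEG had the lowest mean Il33 of the 4 materials at each dose. Its levels were 9.02, 9.21 and 9.0 at 2.5 µg and 9.24, 9.38, 9.42 and 9.25 at 10 µg, inside or just above the PBS range, and 9.98, 9.90 and 10.16 at 40 µg, above it. The log2 differences were -0.54, 0.23 and 1.12 (adjusted p = 0.00941), of which the last alone was called. At 2.5 µg none of all genes was called by limma (0%, with 1005 genes at an unadjusted p under 0.05), at 10 µg 0.428% and at 40 µg 2.18%. The call at 40 µg was lost without PBS replicate 2 (1.06, adjusted p = 0.069) and without CuO PEG 40 replicate 2 (0.96, adjusted p = 0.0873), and with controls of the same slides only (0.90, adjusted p = 0.25). Its dimmer probe on its own gave 0.93 (adjusted p = 0.0835).

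Gata3 had the largest fall of the members. Its levels in PBS lungs were 10.30 to 10.76 with a median of 10.64, and in CuO 40 lungs 9.39, 8.95 and 9.31. No CuO 40 sample came within a log2 unit of the median, and the fitted difference was -2.05 (SE 0.25, adjusted p = 3.64e-06), which stayed called without any one sample. Its size depended on the batch terms, and with the array as a random term it was -1.31 (adjusted p = 2.78e-12) and with slide and array position -1.40 (adjusted p = 4.94e-12). At 10 µg CuO the levels were 10.30, 9.90 and 9.94 and the difference -1.24 (adjusted p = 0.00653), lost without PBS replicate 3 (-1.08, adjusted p = 0.0717). With the array as a random term the latter was -0.50 (adjusted p = 0.00633) and with slide and array position -0.57 (adjusted p = 0.00463), both under the fold threshold. CuO COOH 40 lungs had 9.58, 9.77 and 9.37, a difference of -1.09 (adjusted p = 0.00328), which was -0.51 (adjusted p = 0.65) without PBS replicate 1. CuO NH3 40 lungs had 9.62, 9.35 and 9.4, a difference of -1.14 (SE 0.18, adjusted p = 3.17e-05) that stayed called without any one sample. With CuO PEG 40 the levels were 10.54, 10.54 and 10.56, inside the PBS range, with a difference of -0.10.

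Genes of T cells fell in the same lungs. Of 8 T cell markers, 5 were called lower and none higher with CuO 40, CuO COOH 40 and CuO NH3 40, with median log2 differences of -1.02, -1.02 and -0.76, and with CuO PEG 40 none was called, with a median of 0.21. Their mean log2 level was 7.93 to 8.47 in PBS lungs, 7.32 to 7.60 in CuO 40, 7.50 to 7.80 in CuO COOH 40, 7.51 to 7.73 in CuO NH3 40 and 8.22 to 8.53 in CuO PEG 40 lungs. All 8 markers were detected in at least 78 of 89 samples. The largest falls with CuO 40 were those of Cd3d (-1.96), Cd28 (-1.53), Cd3g (-1.42) and Lck (-1.15). Of 6 endothelial markers, 5 fell with each of these 3 materials and none with CuO PEG 40, while 5, 2, 5 and 0 of 8 neutrophil markers rose. The part of these cells in the fall of Gata3 was not tested.

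Tslp fell with the same materials as Gata3. From 7.66 to 7.98 in PBS lungs it went to 7.04, 7.01 and 6.92 with CuO 40, a difference of -1.03 (SE 0.26, adjusted p = 0.0059). With CuO COOH 40 it was 7.14, 7.36 and 7.22 (-0.83, adjusted p = 0.0282), with CuO NH3 40 7.20, 7.06 and 6.83 (-0.64, adjusted p = 0.0103) and with CuO PEG 40 7.50, 7.54 and 7.70 (-0.14). The first 3 groups lay wholly below the PBS range, and CuO PEG 40 reached into it. Without CuO 40 replicate 2 the CuO 40 difference was -1.62 and no longer called (adjusted p = 0.0729). The CuO COOH 40 call was lost without any of its own 3 replicates (-0.83, -0.85 and -0.81) and without PBS replicate 1 (-0.83). It was also under the fold threshold with the array as a random term (-0.42, adjusted p = 0.00295) and with slide and array position (-0.53, adjusted p = 0.000631). The call of CuO NH3 40 fell under the fold threshold with loess and Aquantile normalization (-0.54). Club and ciliated cell markers moved in these lungs as well, 1 of 6 higher and 1 lower with CuO 40, 1 and 2 with CuO COOH 40, 0 and 4 with CuO NH3 40 and none with CuO PEG 40. Their mean log2 level was 12.38 to 12.8 in PBS, 11.87 to 12.56 in CuO 40, 11.67 to 12.35 in CuO COOH 40, 11.18 to 11.45 in CuO NH3 40 and 12.34 to 12.42 in CuO PEG 40 lungs, and their part in the fall of Tslp was not tested.

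Il13ra1, the chain that with IL-4Rα makes a receptor for both IL-4 and IL-13, rose with CuO COOH and CuO NH3 at the highest dose. Its levels were 10.41 to 10.71 in PBS lungs, 10.94, 11.15 and 11.09 in CuO 40, 11.40, 11.11 and 11.15 in CuO COOH 40, 11.26, 11.11 and 10.91 in CuO NH3 40 and 10.78, 10.82 and 10.75 in CuO PEG 40 lungs. All 12 exposed samples lay above the PBS range, as was common at this dose. The difference was called for CuO COOH 40 (0.92, adjusted p = 0.0082) and CuO NH3 40 (0.64, adjusted p = 0.0061), and for CuO 40 and CuO PEG 40 it was 0.66 (adjusted p = 0.0571) and 0.47. The CuO COOH 40 difference was 1.89 without PBS replicate 1 and 0.50 (adjusted p = 0.252) without CuO COOH 40 replicate 1. That of CuO NH3 40 was 0.46 (adjusted p = 0.307) without its replicate 1 or without PBS replicate 5, which shared an array. It was 0.57 and 0.56 with the array random or with slide and array position. Il4ra ranged from -0.20 to 0.56 and was called in none of the 12 comparisons, nor were Il13ra2 and, as the mean of its probes, Il1rl1.

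**Figure D3:**
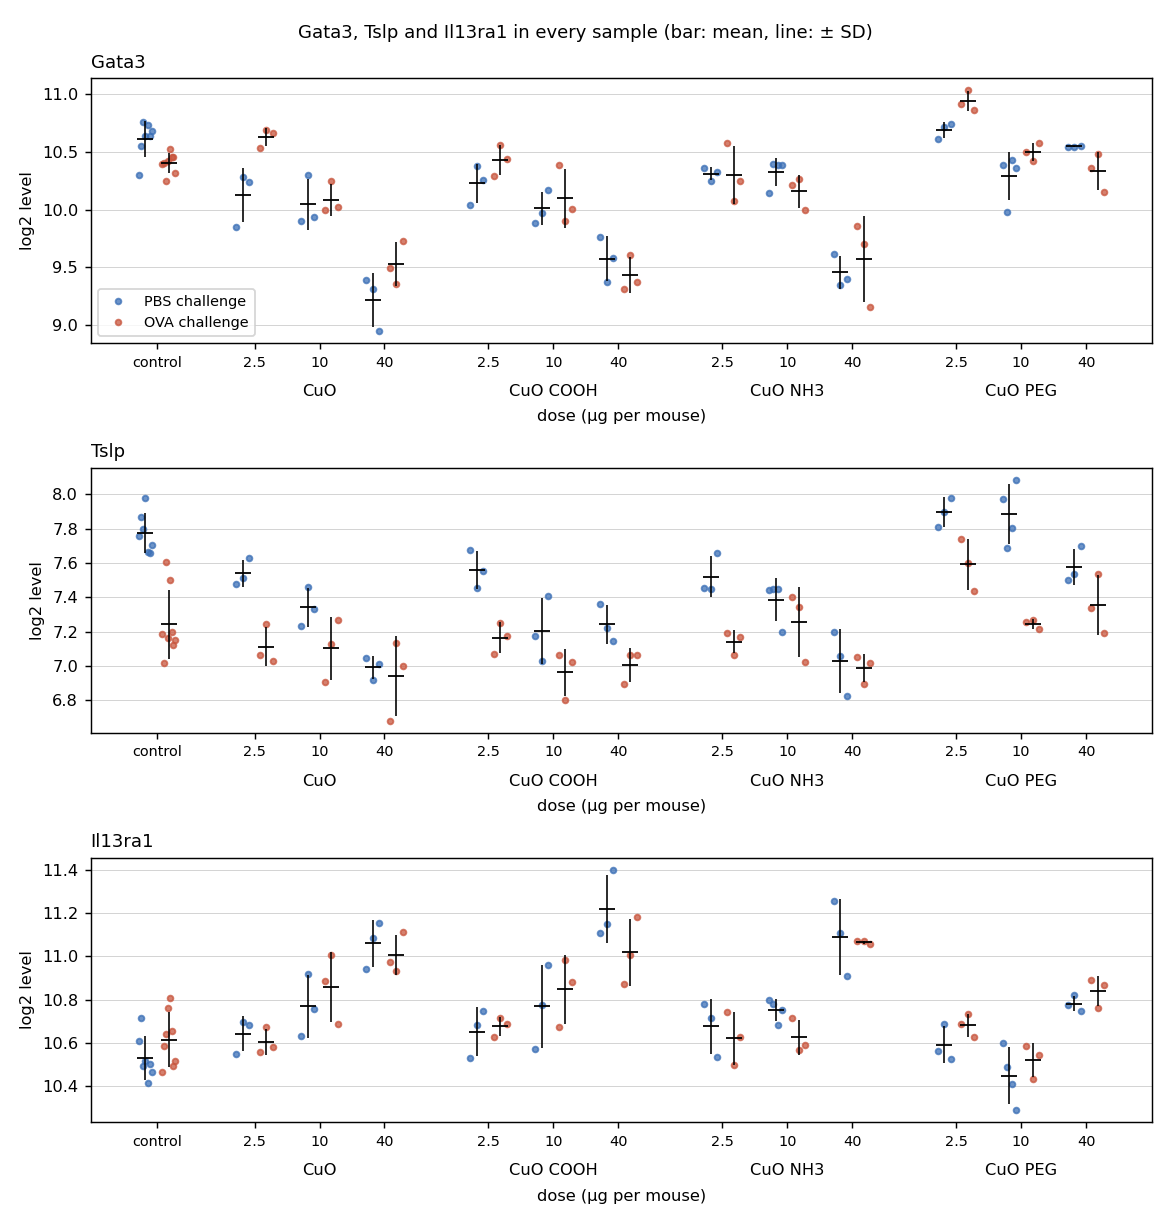
Log2 levels of Gata3, Tslp and Il13ra1 in every sample (points), with group mean and SD, by material and dose in µg per mouse and by challenge. At 40 µg Gata3 lies between 8.95 and 9.86 for CuO, CuO COOH and CuO NH3 under both challenges and between 10.16 and 10.56 for CuO PEG.

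The bright probe of Il1rl1, the receptor of IL-33, fell with 3 of the materials at 40 µg. With the brightest probe of each gene, Il1rl1 was lower by -1.10 with CuO 40 (adjusted p = 0.00918), by -0.91 with CuO COOH 40 (adjusted p = 0.0332) and by -0.61 with CuO NH3 40 (adjusted p = 0.0303). The levels of that probe were 7.15, 6.92 and 7.31, then 7.84, 7.59 and 7.44, then 7.60, 7.35 and 7.52, all below the lowest PBS sample at 7.87. With CuO PEG 40 they were 8.04, 8.21 and 8.04, against 7.87 to 8.18 in PBS lungs. In the groups of 10 µg in which Il33 was called, the mean of the probe was 8.03 with CuO, 7.97 with CuO COOH and 7.96 with CuO NH3, against 8.0 in PBS lungs. In the mean of the 3 probes the differences were -0.38, -0.30, -0.17 and -0.12, none called.

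Of the 22 IL-4 and IL-13 response genes 6 rose and 1 fell with CuO 40, 6 and 0 with CuO COOH 40, 7 and 0 with CuO NH3 40 and 3 and 0 with CuO PEG 40, with medians of 0.17, 0.39, 0.21 and -0.02. In CuO 40 lungs the largest were Retnlb (5.49), a resistin-like protein of epithelium, Arg1 (4.25), Slc26a4 (3.64) and Retnla (3.36), with Il4 not raised beside them. Of the 7 other alarmins 3 rose and 1 fell with CuO 40, S100a8 (2.39), Il18 (-2.35), S100a9 (2.25) and Areg (1.55), an epidermal growth factor family member also made by ILC2. S100a8 and S100a9 are abundant in neutrophils and stand in the neutrophil list as well. Of the 17 Th2 and ILC2 genes 1 rose and 3 fell with CuO 40, Arg1, Pparg (-1.31), Bcl11b (-0.92) and Rora (-0.76), of which Bcl11b and Rora are needed for ILC2 development. Of the 19 receptor and signalling genes 4 rose and 1 fell, led by Socs3 (1.31), Myd88 (0.99), the adaptor of the IL-33 receptor, Stat5b (-0.82) and Il17ra (0.81).

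**Figure D4:**
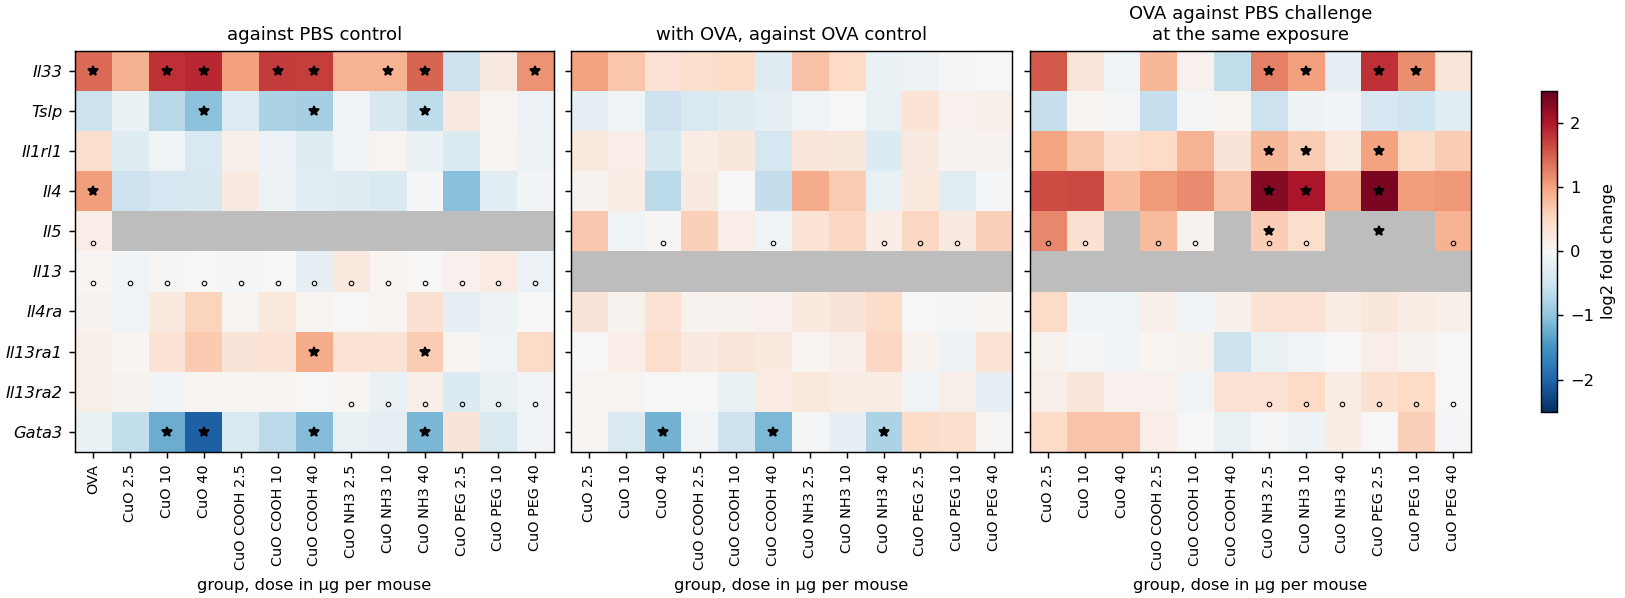
Log2 fold change of each gene against the PBS control, against the OVA control and between challenges at the same exposure (columns: group and dose in µg per mouse). Stars mark calls, circles comparisons in which one group had no sample well above background, and grey those in which neither had. Il33 carries 8 stars in the first panel and none in the second, Gata3 4 and 3.

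Next came the lungs that received material and allergen together, against the OVA control. Of the 10 genes only Gata3 was called, in 3 of the 12 comparisons, which share the same OVA samples. Its levels were 10.25 to 10.53 in OVA lungs, 9.50, 9.73 and 9.36 in CuO 40 + OVA, 9.31, 9.61 and 9.37 in CuO COOH 40 + OVA and 9.86, 9.70 and 9.15 in CuO NH3 40 + OVA. None of these 9 samples overlapped with the OVA control, and CuO PEG 40 + OVA, at 10.36, 10.48 and 10.16, did. For 16.4%, 19.1%, 22% and 8.33% of all genes the samples did not overlap in these comparisons. The log2 differences were -1.18 (adjusted p = 0.014), -1.12 (adjusted p = 0.00042) and -0.78 (adjusted p = 0.0142), and 0.03 for CuO PEG 40 + OVA. Of all genes 1.58%, 3.81%, 3.98% and 0.642% were called in these 4 comparisons.

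Each of these calls could be lost by leaving out a sample, while all 3 were kept under each of 9 other settings of the processing. That of CuO 40 + OVA was lost without its replicate 2 (-1.08) or 3 (-0.97). That of CuO COOH 40 + OVA was lost without its replicate 1 or OVA replicate 1 (-0.95). These 2 samples shared an array, so that leaving out either takes out both. That of CuO NH3 40 + OVA was lost without its replicate 2 (-0.79) or 3 (-0.60) or without OVA replicate 8 (-0.60). T cell markers fell here too, 4, 5 and 6 of 8 with medians of -1.12, -0.86 and -0.93, and none of 8 with CuO PEG 40 + OVA, at a median of -0.23. Their mean log2 level was 8.56 to 8.92 in OVA lungs and 7.73 to 7.92, 7.79 to 8.02, 7.69 to 8.02 and 8.43 to 8.70 in the lungs of the 4 materials. Their part in the fall of Gata3 was not tested.

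Il33 was not called higher or lower than in OVA lungs in any of the 12 comparisons. The log2 differences at 2.5, 10 and 40 µg were 1.01, 0.70 and 0.37 for CuO, 0.44, 0.45 and -0.30 for CuO COOH, 0.73, 0.50 and -0.17 for CuO NH3 and -0.13, -0.03 and 0.01 for CuO PEG. At the lower doses the share of all genes called was 0% for CuO 2.5 + OVA, CuO PEG 2.5 + OVA and CuO PEG 10 + OVA, where limma gave 913, 1781 and 1293 genes at an unadjusted p under 0.05. It was 0.266% for CuO 10, 0.0349% and 0.637% for CuO COOH 2.5 and 10 and 0.986% and 2.51% for CuO NH3 2.5 and 10, all with OVA. Il4 was lowest among the OVA-challenged groups in CuO 40 + OVA lungs, at 6.50, 7.03 and 6.31, each below the lowest OVA control at 7.17, with a difference of -0.68 (adjusted p = 0.556). That result depended on the batch terms, since with slide and array position Il4 was called lower in CuO 40 + OVA (-1.11, adjusted p = 0.000635) and in CuO COOH 40 + OVA (-0.69, adjusted p = 0.022), and also with the array as a random term (-1.19, adjusted p = 1.04e-05, and -0.75, adjusted p = 0.00339). In CuO NH3 2.5 + OVA it was called higher with the random term (0.70, adjusted p = 0.0149). With the brightest probe of each gene, Il1rl1 was lower by -1.16 in CuO 40 + OVA (adjusted p = 0.0414) and by -1.0 in CuO COOH 40 + OVA (adjusted p = 0.00387).

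Of the 22 response genes of IL-4 and IL-13, 1 rose and none fell in CuO 40 + OVA, 1 rose and 5 fell in CuO COOH 40 + OVA, 1 rose and 6 fell in CuO NH3 40 + OVA and none was called in CuO PEG 40 + OVA, with medians of -0.34, -0.28, -0.39 and -0.05. The counts were not tested between materials. In CuO NH3 40 + OVA the largest were Clca1 (-4.65), Muc5ac (-3.06), the secreted airway mucin, Fcgbp (-2.78), which is released with mucus, and Chil4 (-2.5). In CuO COOH 40 + OVA they were Retnlb (2.58), Muc5ac (-2.09), Fcgbp (-1.95) and Chil3 (-1.82). Il4 itself differed by -0.19 and -0.60 in these groups. Club and ciliated cell markers had mean log2 levels of 11.8 to 12.64 in OVA, 12.15 to 12.52 in CuO 40 + OVA, 11.52 to 12.22 in CuO COOH 40 + OVA, 11.4 to 11.71 in CuO NH3 40 + OVA and 12.04 to 12.11 in CuO PEG 40 + OVA lungs. Of these 6 markers 1 was called lower, in CuO NH3 40 + OVA, and their part in the fall of the mucus genes was not tested.

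How far the allergen still acted in exposed lungs was read from OVA-challenged against unchallenged lungs of the same material and dose. Il4 was higher in the OVA-challenged group at every material and dose, without overlap of samples in all 12. For 20% to 43.2% of all genes the samples did not overlap in a single one of these comparisons. Over the 26 groups the mean Il4 level ran from 5.81 to 6.40 in the 13 without OVA and from 6.61 to 8.26 in the 13 with OVA, so that Il4 sorted all groups by challenge. The detected probe of Il13ra2 did so too, by a small margin, from 5.71 to 6.17 without and from 6.20 to 6.86 with OVA. For Il4 the lowest means of each set were those of CuO 40 and CuO 40 + OVA, and the highest with OVA was that of CuO NH3 2.5 + OVA. Neighbours in the order of Il4 means differed by less than the SD within a group, whose median was 0.21, except for the steps just below CuO NH3 2.5 + OVA, CuO PEG 40 + OVA, CuO COOH 40 + OVA and CuO 40 + OVA.

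In the limma fit, 12 calls fell on 4 comparisons. Il4 was 6.35, 6.01 and 5.91 in CuO NH3 2.5 and 8.09, 8.56 and 8.13 in CuO NH3 2.5 + OVA lungs, a log2 difference of 2.28 (SE 0.30, adjusted p = 1.97e-05). It was 5.70 to 6.18 in the 4 CuO NH3 10 samples and 7.74, 8.26 and 8.07 with OVA, a difference of 2.03 (adjusted p = 0.00124), and 6.17, 6.23 and 5.99 in CuO PEG 2.5 and 7.28, 7.51 and 7.36 with OVA, a difference of 2.35 (adjusted p = 0.00124). The challenged samples of these 3 pairs lay between 7.28 and 8.56, against 7.17 to 8.51 in the OVA control. Of all genes, 8.18%, 4.81% and 7.82% were called in these comparisons and 2.3% at CuO PEG 10. The CuO NH3 10 call was lost without its replicate 2 (2.09) or CuO NH3 10 + OVA replicate 3 (1.98), and the CuO PEG 2.5 call without CuO PEG 2.5 replicate 3 (1.65).

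Il33 rose by 1.27 at CuO NH3 2.5 (adjusted p = 0.000157), by 1.03 at CuO NH3 10 (adjusted p = 0.0105), by 1.82 at CuO PEG 2.5 (adjusted p = 0.000321) and by 1.16 at CuO PEG 10 (adjusted p = 0.041). Its receptor Il1rl1 rose by 0.83 (adjusted p = 0.000151), 0.64 (adjusted p = 0.014) and 1.01 (adjusted p = 0.00149) at the first 3 of these. With the brightest probe of each gene the rises of Il1rl1 were 1.5, 1.26 and 1.61, each called. The Il33 call at CuO NH3 10 was lost without its replicate 2 (1.31) or CuO NH3 10 + OVA replicate 3 (0.78), at CuO PEG 2.5 without CuO PEG 2.5 replicate 3 (1.45), and at CuO PEG 10 without any of its 7 samples but CuO PEG 10 + OVA replicate 2 (0.89 to 1.37). The Il1rl1 call at CuO NH3 10 was lost without the same 2 samples (0.79 and 0.52) and at CuO PEG 2.5 without CuO PEG 2.5 replicate 3 (0.64). At CuO NH3 10 it was also under the fold threshold with the array as a random term (0.49) or with slide and array position (0.51). With slide and array position the Il33 difference at CuO PEG 2.5 was 0.97 (adjusted p = 0.000203) and stayed called.

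Il5 was called at CuO NH3 2.5 and at CuO PEG 2.5, both at the edge of detection. At CuO NH3 2.5 its levels were 5.67, 5.77 and 5.56 without and 6.27, 6.55 and 5.88 with OVA, where 1 of 3 samples was well above background, which makes it brighter by at least 1.17-fold (normalized means 6.19 and 5.56, adjusted p = 0.0263). That call was lost without replicate 1 or 2 of either group (adjusted p = 0.0884 to 0.179). Replicate 1 of both groups shared an array, so that leaving out either takes out both. At CuO PEG 2.5 no sample of either group was well above background, and no fold is given (adjusted p = 0.015). That call was lost without CuO PEG 2.5 replicate 3 or CuO PEG 2.5 + OVA replicate 3.

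Il13ra2, the decoy receptor of IL-13, was at the edge of detection too. As the mean of its probes, 1 of which was never detected, it was not called in any of the 12 comparisons. At CuO NH3 10 that mean was brighter with OVA by 1.14-fold or more on the group means, a difference that limma did not call (adjusted p = 0.0742). The detected probe had group means of 5.85 and 6.86 at CuO NH3 2.5, 5.81 and 6.81 at CuO NH3 10 and 5.71 and 6.20 at CuO PEG 2.5, without and with OVA. No unchallenged sample of these was well above background, and 2 of 3, 3 of 3 and 1 of 3 challenged samples were. With the brightest probe of each gene all 3 differences were called (adjusted p = 7.46e-05, 0.00363 and 0.00501).

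In the other 8 comparisons none of the 10 genes was called, and few genes of any kind were. The share called was 0.0306%, 0.284% and 0.0218% for CuO at 2.5, 10 and 40 µg, 0.0262%, 0.0175% and 0.00436% for CuO COOH, 0% for CuO NH3 40 (1509 genes at an unadjusted p under 0.05) and 0.93% for CuO PEG 40. With slide and array position in the model in place of the array, 28 calls were made instead of 12. Il4 was then called higher in 11 of 12 comparisons, all but CuO 40 (0.80, adjusted p = 0.174), Il33 in 7 and Il1rl1 in 7. The differences of Il4 in that fit were 1.63, 1.63 and 0.80 for CuO at 2.5, 10 and 40 µg, 1.26, 1.21 and 0.98 for CuO COOH, 2.17, 2.01 and 1.27 for CuO NH3 and 1.25, 1.63 and 1.00 for CuO PEG. In each of the 4 materials the smallest of these was that at 40 µg. The shares of all genes given above are those of the fit with the array, so that the 28 calls cannot be set against them.

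**Figure D5:**
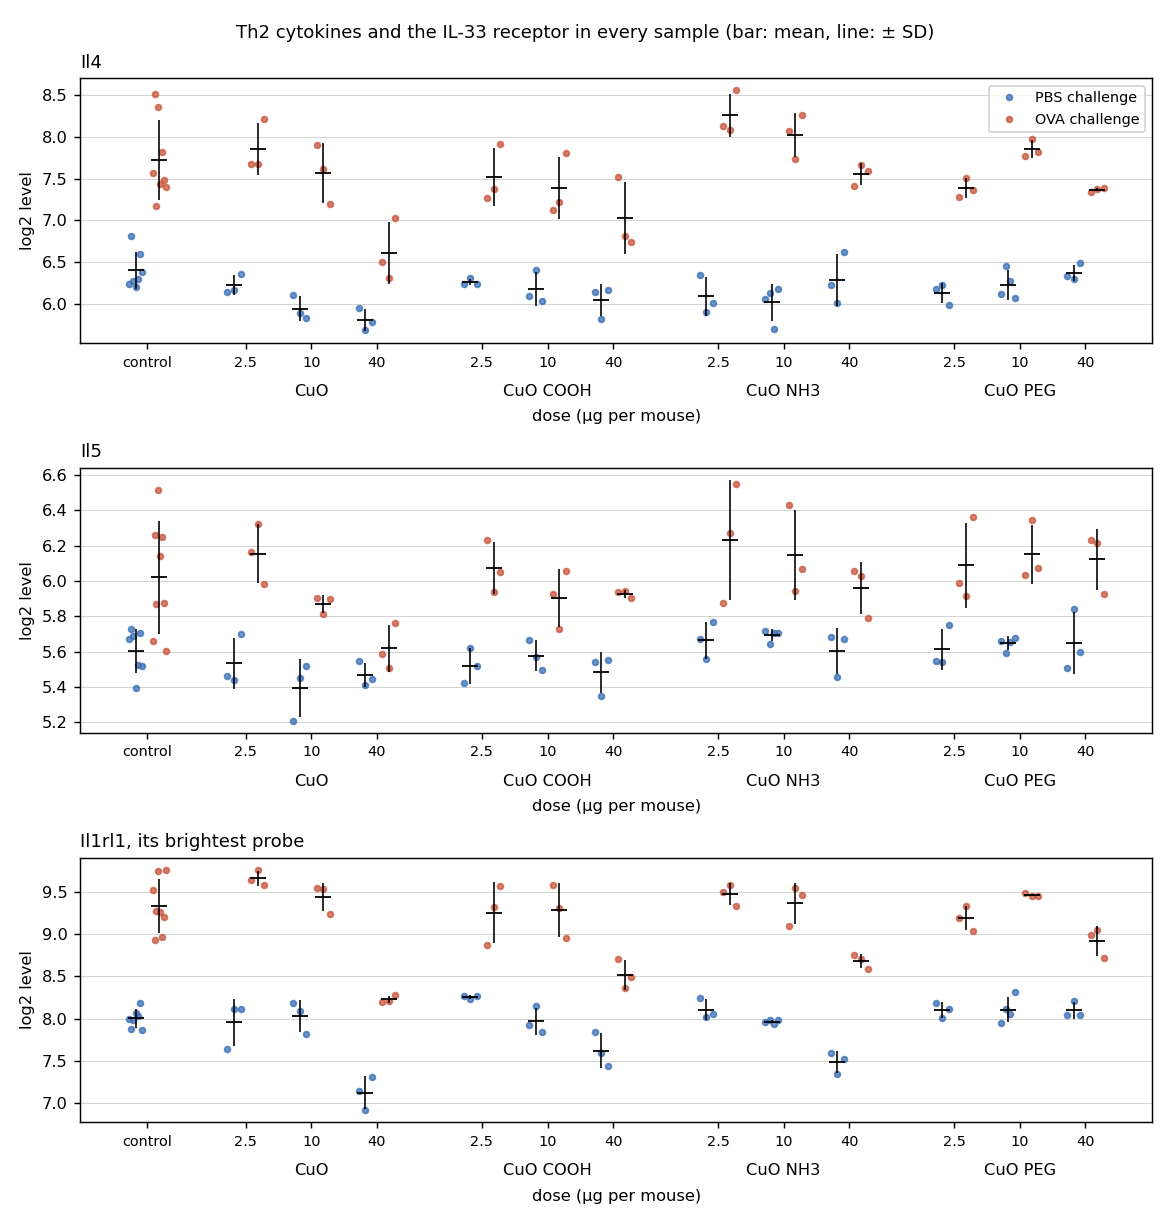
Log2 levels of Il4, Il5 and the brightest probe of Il1rl1 in every sample (points), with group mean and SD, by material and dose in µg per mouse and by challenge. OVA-challenged groups have Il4 means of 6.61 to 8.26 against 5.81 to 6.40 without OVA, and Il5 stays below 6.60 throughout.

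For Il33 both challenges met at the highest dose. CuO 40, CuO COOH 40 and CuO NH3 40 lungs were at 10.06 to 10.65 without OVA and at 10.24 to 10.42 with it, and the difference between challenges was -0.11, -0.61 and -0.22. The test of the exposure effect with OVA minus that without OVA gave -1.52 for CuO 40 (adjusted p = 0.0146), -2.02 for CuO COOH 40 (adjusted p = 0.00184) and -1.63 for CuO NH3 40 (adjusted p = 0.00169). For CuO PEG 40 it was -1.11 (adjusted p = 0.703). These were the 3 calls among the 10 genes, while 1.1%, 1.05% and 1.59% of all genes were called, and 0% with CuO PEG 40 (1118 genes at an unadjusted p under 0.05). With each of these 3 materials the rise with both was smaller than the sum of the rises with either on the log2 scale.

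The CuO 40 call was lost without PBS replicate 2 (-1.46) or 3 (-1.39), CuO 40 replicate 2 (-1.47), CuO 40 + OVA replicate 2 (-1.62) or OVA replicate 3 (-1.46), and the CuO COOH 40 call without PBS replicate 1 (-2.18). PBS replicate 2 and OVA replicate 3 shared an array, so that leaving out either takes out both. The CuO NH3 40 call was kept without any one sample. With slide and array position in the model, Il33 was called lower by this test in 6 of the 12 comparisons of material and dose. With the array as a random term it was called lower in 5.

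Last, each surface form was set against core CuO at equal dose and challenge, 9 pairs without and 9 with OVA, in a fit with dye, slide and array position, and p-values adjusted over all genes within each pair. CuO PEG, which carries polyethylene glycol chains on the same oxide, differed from core CuO in 5 member results, and CuO COOH and CuO NH3 in none. For CuO COOH against CuO at most 0.188% of all genes were called without and 0.323% with OVA. For CuO NH3 it was at most 0.161% and 0.384%, so that no call among 10 genes says little about the members. Gata3 was higher with CuO PEG 40 than with CuO 40 by 1.33 (95% interval 0.965 to 1.703, adjusted p = 1.83e-06) and with CuO PEG 40 + OVA than with CuO 40 + OVA by 0.81 (0.404 to 1.207, adjusted p = 0.0443). Tslp was higher with CuO PEG 40 by 0.59 (0.269 to 0.904, adjusted p = 0.00872). Il33 was lower with CuO PEG at 2.5 µg by -0.96 (-1.459 to -0.467, adjusted p = 0.0159) and at 10 µg by -0.87 (-1.325 to -0.421, adjusted p = 0.0273). At 40 µg the Il33 difference was -0.21 (-0.675 to 0.259), and Il4ra, lower by -0.42 (adjusted p = 0.0356), fell short of the fold threshold. With the brightest probe of each gene, Il1rl1 was higher with CuO PEG 40 than with CuO 40 by 0.97 (adjusted p = 0.000849).

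Of all genes 1.86%, 1.06% and 4.39% were called for CuO PEG against CuO at 2.5, 10 and 40 µg and 0.393% at 40 µg with OVA. CuO and CuO PEG samples lay on different slides and were connected through the control groups alone, and the part of the slides in these differences was not tested. The Gata3 call without OVA was kept without any one sample, and its value was 1.95 (adjusted p = 0.00193) with array terms in place of slide and position. Its call with OVA was lost without CuO 40 + OVA replicate 1 (0.79) or 3 (0.71) or CuO PEG 40 + OVA replicate 1 (0.78) or 2 (0.71), with array terms (1.22, adjusted p = 0.789) and with loess and Aquantile normalization (0.82, adjusted p = 0.0507). That of Tslp fell under the fold threshold without CuO 40 replicate 3 (0.54) or CuO PEG 40 replicate 3 (0.51), with normexp background correction (0.56) and with the array as a random term (0.55), and was lost with array terms (0.89, adjusted p = 0.117). That of Il33 was lost at 2.5 µg without CuO 2.5 replicate 2 (-0.81) or 3 (-0.80) or CuO PEG 2.5 replicate 3 (-0.89), and at 10 µg without CuO 10 replicate 2 (-0.77) or 3 (-0.85) or CuO PEG 10 replicate 2 (-0.90) or 4 (-0.85). The latter was also lost with the brightest probe of each gene (-0.77, adjusted p = 0.0833) and with array terms (-1.60, adjusted p = 0.0561).

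CuO COOH and core CuO were on the same slides. At 40 µg without OVA their Gata3 difference was 0.36 (0.054 to 0.668, adjusted p = 0.288), that of Tslp 0.25 (-0.014 to 0.515) and that of Il33 0.33 (-0.059 to 0.717). For CuO NH3 40 the differences from CuO 40 were 0.24 (-0.135 to 0.618) for Gata3, 0.04 (-0.287 to 0.36) for Tslp and 0.17 (-0.306 to 0.645) for Il33. These intervals reach past the fold threshold in part, so that they do not show the forms to act alike. With OVA at 40 µg, Il4 was higher with CuO NH3 than with core CuO by 0.94 (0.352 to 1.535), which was not called (adjusted p = 0.117).

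Over all 26 groups, the means of Il33 spanned 9.08 to 11.08, those of Gata3 9.21 to 10.94 and those of Tslp 6.94 to 7.90, with median SDs within a group of 0.18, 0.15 and 0.12. Il33 was lowest in CuO PEG 2.5 and highest in CuO NH3 2.5 + OVA lungs, Gata3 lowest in CuO 40 and highest in CuO PEG 2.5 + OVA lungs, and Tslp lowest in CuO 40 + OVA and highest in CuO PEG 2.5 lungs. The receptor chains ranged less, Il13ra1 from 10.45 in CuO PEG 10 to 11.22 in CuO COOH 40 lungs and Il4ra from 9.07 in CuO PEG 10 to 9.70 in CuO NH3 40 + OVA lungs, each with a median SD of 0.10.

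Across these group means, the genes whose levels ran most like those of a member were listed among 15436 genes well above background in at least 0.5 of the samples, as a description over points that share arrays. Nearest to Il33 were Slc39a11 (Pearson r = 0.949), Sec11c (0.947) and Adora3 (0.944). Nearest to Il4 were P2rx1 (0.978), Gata1 (0.977) and Pdcd1lg2 (0.976), and to Il1rl1 Tnfrsf18 (0.972), Pdcd1lg2 (0.968) and Il2ra (0.967). Nearest to Tslp were Maml2 (0.958), Cdadc1 (0.944) and Hivep2 (0.944), and to Gata3 Tlr12 (0.945), Crlf3 (0.945) and Ncr1 (0.939). Pdcd1lg2 stood near both Il4 and Il1rl1.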

How the data were processed

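Lung RNA pools of 2 samples each were labelled with Cy3 or Cy5 and hybridised to Agilent arrays. The authors extracted spot intensities with Feature Extraction. Their own log2 table, deposited by spot beside the scanner files, was quantile normalized and corrected for labelling and array with ComBat. It was averaged by probe and gene here and served as an alternative. The deposited median foreground intensities of 89 samples were taken to log2 without background subtraction, 3671 of 62976 spots per array were left out as controls, outlier spots were set to missing, samples were quantile normalized and probes of a gene were averaged, which left 22911 genes. Genes were named through RefSeq (GRCm38.p6), and 23611 probes without a gene were not used. limma 3.58.1 in R 4.3.3 fitted the 26 groups with dye and array, or, between materials, with dye, slide and array position. The procedure was tested on simulated data. Per the labels the pools were independent, and p-values measure the spread between pools. Groups came from the sample labels, which give the dose in mg in one place and in µg in another, the unit used here. The 10 genes and all lists were chosen with earlier results of these data known. Named in the text are the 10 genes, at most 4 called genes of a list with the largest change and the 3 genes of most like pattern. Alternatives changed background correction, normalization, batch terms, probe choice, controls and samples, and single probes were tested as an alternative chosen after seeing the data. Replicate numbers do not pair the samples. No sequences of probes or proteins were used here. The number of arrays per group limits the precision.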

Additional observations from a re-analysis of the deposited data

Results flagged for a closer look

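In groups of 4 to 10 samples, 40 checks looked for a sample far from the others, of which chance alone marks about 1 in 20, and 4 values stood out. CuO NH3 10 replicate 3 had an Il1rl1 level of 7.21, with the nearest sample of its group at 6.63, and a Tslp level of 7.2, with the nearest at 7.45. That Il1rl1 level was the mean of its probes. The probe detected in all samples was 7.94 in this replicate, beside 7.96, 7.98 and 7.98 in the others. A dimmer probe of Il1rl1 reached 8.33 in this group, with a median of 5.98. Gata3 was 10.15 in CuO NH3 10 replicate 2, with the nearest at 10.38, and 9.98 in CuO PEG 10 replicate 1, with the nearest at 10.36.

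The response of Il33 to the material differed between challenges by the interaction test of limma, in the fit with the array at the highest dose alone. With slide and array position it was called in 6 of 12 comparisons and with the array as a random term in 5, so that lower doses were among them. The effect under OVA minus that under PBS was -1.52 with CuO 40. It was -2.02 with CuO COOH 40 and -1.63 with CuO NH3 40. The unchallenged samples of these groups lay at 10.06 to 10.65 and the challenged ones at 10.24 to 10.42.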

How the results depend on the processing

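No called result changed direction under any alternative. Of the 10 genes, 2 were called in OVA against PBS controls, and 0 on slides 4 to 6 alone by limma. Against the OVA control 3 calls became 6 with the brightest probe of each gene, 7 when the array was a random block and 5 under other batch terms. Between challenges at the same exposure 12 calls became 28 with the random block and 28 with other batch terms. For the exposure effect under OVA minus under PBS, 3 calls became 6 and 7, and between materials 5 became 10 and 2, in the same order. With the replicate number as a block together with dye, calls were 10 against the OVA control, 27 between challenges, 5 for the interaction and 12 between materials, though same-numbered samples deviated together only weakly (median r 0.0715 over 984 pairs, and 37 of 89 samples correlated best with their own number). The cause of these shifts was not tested. Shares of all genes called under these settings are not given here, so that the counts do not set the members apart from other genes. The deposited log2 table changed the call of 1 of 670 gene results, loess with Aquantile 6 and normexp 2. The deposited table had been quantile normalized too and was fitted with the same terms, so that it is no independent check.

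Leaving out each sample in turn gave 1 to 3 calls in OVA against PBS controls, 12 to 17 against the PBS control, 2 to 5 against the OVA control, 7 to 14 between challenges, 2 to 3 for the interaction and 3 to 6 between materials. The 1 call came without PBS replicate 2 or OVA replicate 3, which shared an array. The 5 calls came without CuO NH3 2.5 + OVA replicate 1. They also came without CuO PEG 40 + OVA replicate 2 or CuO NH3 10 + OVA replicate 2, which shared an array. The 7 calls came without CuO PEG 2.5 replicate 3. The 3 calls between materials came without CuO 40 + OVA replicate 1, CuO NH3 10 + OVA replicate 3, CuO 2.5 + OVA replicate 3, CuO PEG 40 replicate 3 or CuO PEG 2.5 replicate 3. Signal over background limits Il5, Il13 and Il13ra2, with median foreground 2.58 and 1.66 times the local background in Cy3 and Cy5.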
